A study of Mus musculus with 9 samples.

Results

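Genes that encode heat shock proteins of the cytosol and the mitochondrion were followed in RAW264.7 macrophages under 3 treatments, named DMSO, LPS and LPS + Ska. They were taken by symbol, and 10 of the 55401 genes in the deposited table matched: Hspa1a, Hspa1b, Hspa8, Dnajb1, Hsph1, Bag3, Hsp90aa1, Hspa9, Hspd1 and Hspe1. RAW264.7 is a mouse macrophage line from a tumor that Abelson leukemia virus induced in a male mouse, and the labels give its genotype as WT. The control cells received DMSO, the solvent, the LPS cells received DMSO and LPS, a component of the bacterial wall that polarizes macrophages toward M1, and the LPS + Ska cells received LPS and skatole, an indole compound. Treatment lasted 24 h per the labels, and total RNA of bulk cells was sequenced in 9 samples, 3 per group, all numbered 5, 6 and 7. All samples come from 1 cell line, and no source says that they were separate cultures, so the p-values measure the spread between these samples only.

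Values are TPM, the share of a transcript in a sample scaled to a fixed total after division by transcript length. Reads cannot be counted back from TPM, so no depth per sample and no counting error could be given. The 9 columns summed to between 999895 and 1000145, and 12498 to 13012 genes per column had at least 1 TPM. In the LPS and the LPS + Ska groups the 3 columns are tied. Replicate 5 was the mean of replicates 6 and 7 in 17950 of 17950 genes with LPS and in 17658 of 17658 genes with LPS + Ska, within a tolerance of 1e-05 TPM. In DMSO the same held for at most 0.0636% of genes. A group with tied columns has no more than 2 independent values behind its 3 columns, so its SD and every p-value below rest on fewer observations than n = 3 columns implies. Of 8 macrophage markers, 7 were detected, with Lyz2 at 4219 TPM or more in every column, and Mertk was listed at 0. Markers of T, B, fibroblast and epithelial cells were at 0.672 TPM or less, and Il1b had a mean of 0.155 TPM with DMSO, 28.1 with LPS and 10.2 with LPS + Ska.

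Heat shock proteins are chaperones that keep other proteins folded. Cytosolic Hsp70 binds exposed hydrophobic stretches of a client and lets go in a cycle driven by ATP, in which J-domain proteins such as Dnajb1 speed up hydrolysis and exchange factors such as Hsph1 and Bag3 release the ADP. Hsp90 takes over clients at a later stage of folding, among them many kinases of innate immune signaling. In the mitochondrion, the Hsp70 of the matrix (Hspa9) draws proteins in through the membrane, and the chaperonin Hspd1 with its lid Hspe1 folds them in a closed chamber. Under proteotoxic stress the transcription factor Hsf1 forms trimers and binds heat shock elements, which are rows of short inverted units in the promoters of many of these genes.

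Hspa8 dominated the group in every column. The mean of Hspa8 was 2296 TPM ± 82.5 (SD, n = 3 columns) with DMSO, 2853 ± 85.8 with LPS and 2379 ± 145 with LPS + Ska. The inducible Hsp70 genes stood at the other end, with Hspa1b between 3.50 and 6.63 TPM and Hspa1a between 0.423 and 0.995 TPM in all columns. In DMSO the order of the levels from Hspa8 downward was Hspd1, Hsp90aa1, Hspa9, Hspe1, Hsph1, Bag3, Dnajb1, Hspa1b and Hspa1a. In LPS and in LPS + Ska, Hsp90aa1 stood above Hspd1. The columns of neighbors in these orders did not overlap, except those of Hspa9 and Hspe1 in LPS + Ska. Together the 10 genes took 0.423% to 0.465% of all TPM in DMSO, 0.578% to 0.589% in LPS and 0.514% to 0.556% in LPS + Ska. Hspa8 alone made up 52.1% ± 0.770 of this sum with DMSO, 48.8% ± 1.00 with LPS and 44.5% ± 0.962 with LPS + Ska (mean ± SD, n = 3 columns). In bulk RNA, fewer cells that express a gene and less RNA per cell cannot be told apart.

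**Figure D1:**
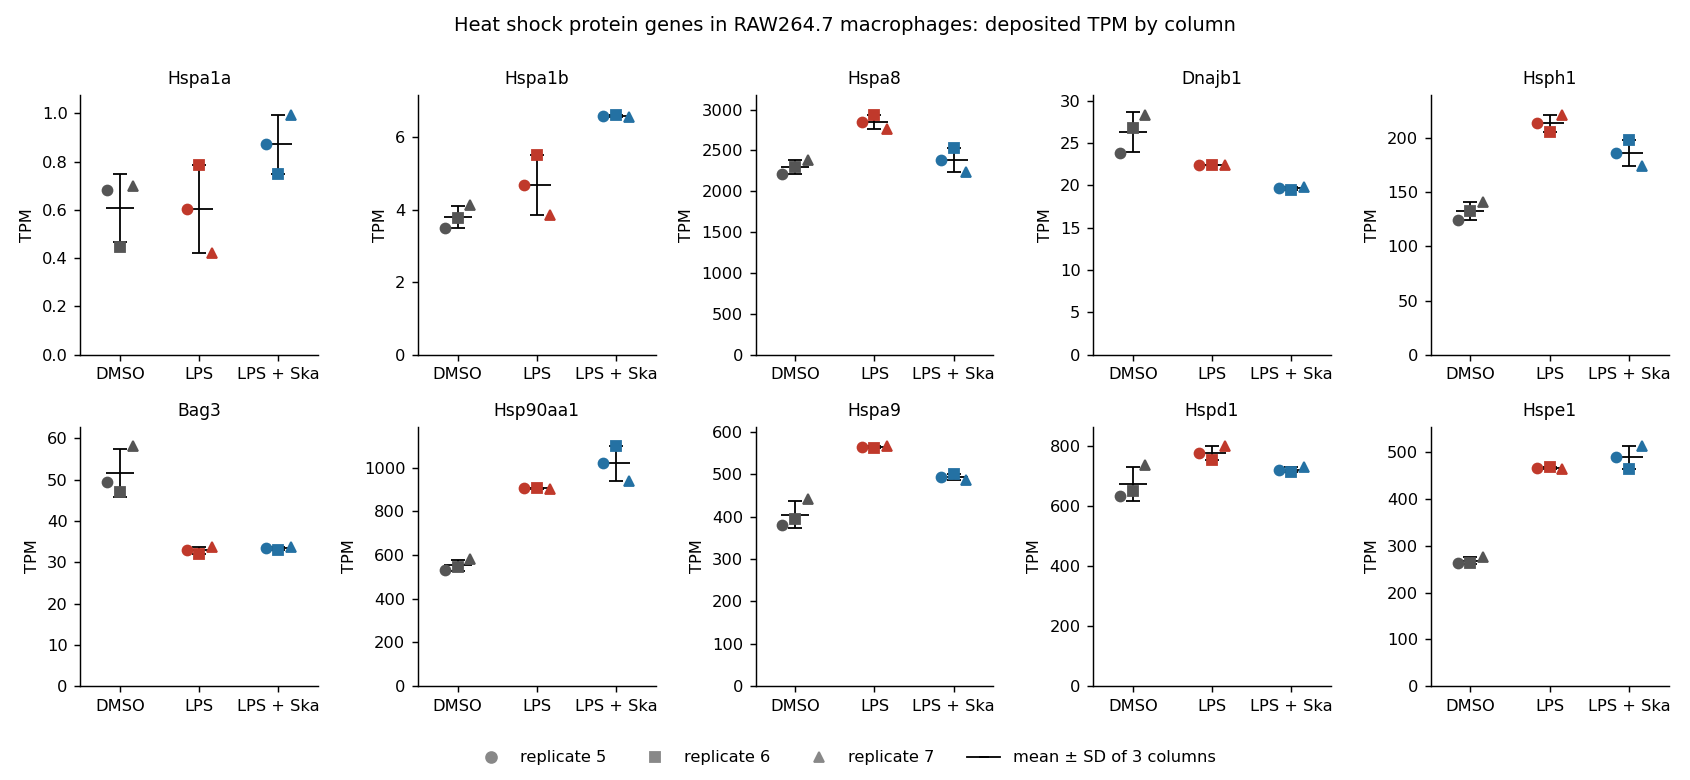
Deposited TPM (vertical axes, linear and starting at 0, a separate scale per gene) of the 10 heat shock protein genes in the 9 columns, by group. Points are columns, horizontal bars are means and error bars are the SD of 3 columns. Hspe1, Hsp90aa1 and Hsph1 lie higher in all LPS and LPS + Ska columns than in DMSO, Bag3 lies lower, and Hspa1b is highest with LPS + Ska.

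The design implies 3 comparisons, which ask for the effect of LPS against DMSO, the effect of skatole on top of LPS, and the combined treatment against DMSO. They share groups, so they are not independent of each other. Fold changes were estimated with limma on log2(TPM + 1) over 12819 genes with a mean of at least 1 TPM, and a gene was called changed at an adjusted p below 0.05 with a fold change above 1.5 or below 0.67. Hspa1a did not reach the filter, with a mean of 0.694 TPM over all columns, so 9 of the 10 genes were tested, and the 9 did not pass it through 1 group alone. In LPS compared with DMSO, 3 of the 9 were called higher (Hsph1, Hsp90aa1, Hspe1) and 1 lower (Bag3), where 12.7% of all tested genes were called higher and 20.0% lower. In LPS + Ska compared with LPS, limma called 0 of the 9 in either direction, against 3.35% of all tested genes higher and 6.14% lower. Here 6 of the 9 had an unadjusted p below 0.05, a limit for which all genes were not counted. An adjusted p below 0.05 was reached by 4 of the 9, 1 higher and 3 lower, all with fold changes inside the limits. Of all 12819 tested genes, 1139 higher and 2524 lower reached that adjusted p. With the replicate number as a block, or with the values recovered from the tied columns, 1 of these 4, Hspa8, had an adjusted p below 0.05. In LPS + Ska compared with DMSO, 3 were called higher (Hspa1b, Hsp90aa1, Hspe1) and 1 lower (Bag3), against 11.4% and 25.3% of all tested genes. The median log2 fold change of the 9 was 0.31 against -0.07 over all genes with LPS compared with DMSO, -0.11 against -0.10 with LPS + Ska compared with LPS, and 0.29 against -0.18 with LPS + Ska compared with DMSO.

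**Figure D2:**
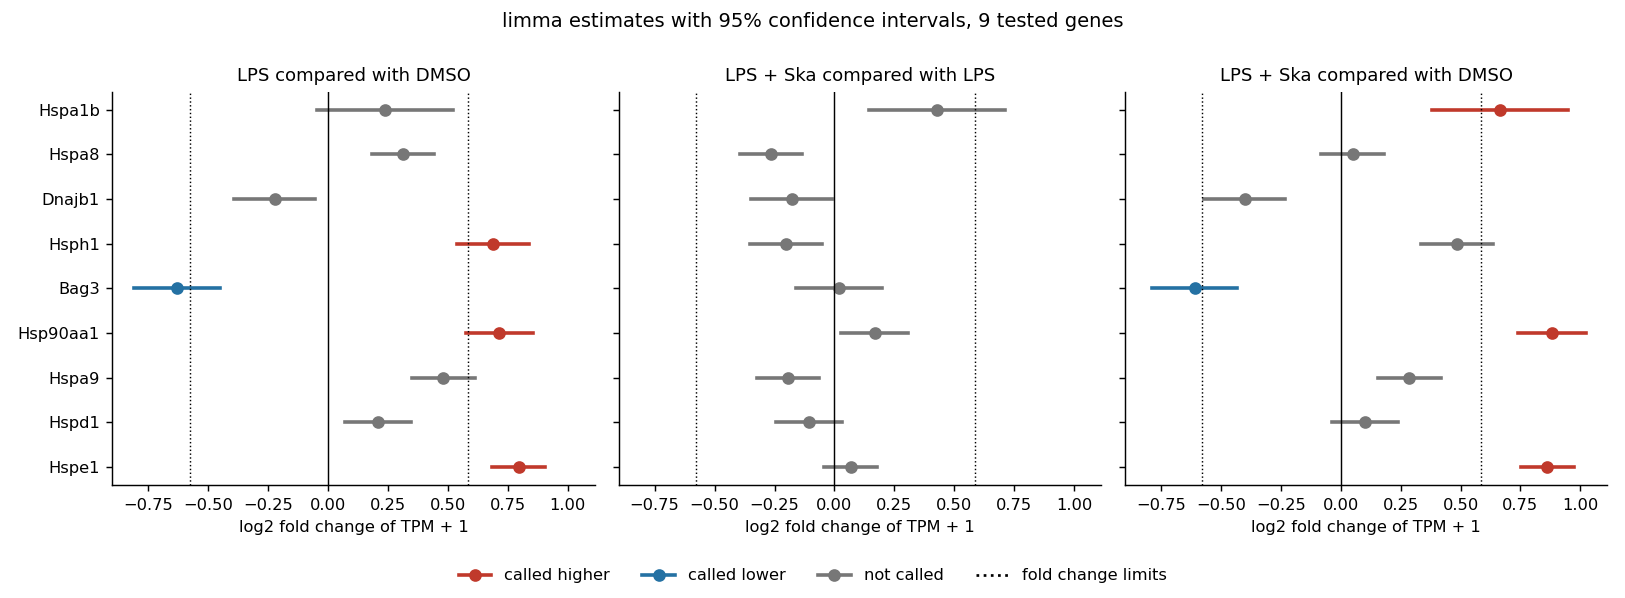
log2 fold change of TPM + 1 (horizontal axes) of the 9 tested genes in the 3 comparisons, as points with 95% confidence intervals from limma over all 9 columns. Dotted lines mark the fold change limits of 1.5 and 0.67. The 4 genes called with LPS and the 4 called with LPS + Ska against DMSO lie outside the limits, and no gene does with LPS + Ska compared with LPS.

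Hspa1a and Hspa1b encode the Hsp70 that is made in bulk after heat or other proteotoxic stress. They are neighbors on the reverse strand of chromosome 17 in GRCm38 (mm10), with Hspa1a at chr17:34969190-34972156 and Hspa1b at chr17:34956436-34959238, and 9951 bases lie between them. Of the windows of 50 bases in their longest transcripts, 60.3% of those of Hspa1a and 62.3% of those of Hspa1b also occur in another gene. Most are shared with each other, and Hspa1l, another Hsp70 gene, holds 232 windows of Hspa1a and 187 of Hspa1b. The split of reads between these genes is therefore uncertain. The promoters of Hspa1a and Hspa1b were taken from RefSeq (GRCm38.p6), from 250 bases before to 50 after the start site. They are identical at 296 of 300 positions (98.7%). Both hold a pair of heat shock element units, GAANNTTC, from 104 to 97 bases before the start site, which was counted as 0. The surrounding 48 bases are shown because they carry this pair, in capitals, and do not differ between the genes. They lie at chr17:34972233-34972280 and chr17:34959315-34959362 on the reverse strand, where the annotation has no gene.
Hspa1a: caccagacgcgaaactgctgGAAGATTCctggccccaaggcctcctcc
Hspa1b: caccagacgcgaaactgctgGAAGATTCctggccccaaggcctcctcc

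In the DMSO columns Hspa1b was at 3.50, 3.77 and 4.12 TPM. With LPS it was at 4.69, 5.52 and 3.85 TPM, and with LPS + Ska at 6.59, 6.63 and 6.55 TPM. All 3 LPS + Ska columns were above every other column, whereas LPS replicate 7 fell inside the DMSO range. Hspa1b rose with LPS + Ska compared with DMSO, by 0.66 on the log2 scale (SE 0.13, adjusted p = 0.0013, limma). Compared with LPS the log2 fold change was 0.43 (SE 0.13, adjusted p = 0.033), a fold of 1.34 that stayed inside the limit, and its 95% interval reached from 0.14 to 0.71. For LPS compared with DMSO it was 0.24 (SE 0.13, adjusted p = 0.13).

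Hspa1a, the other copy, was listed at 0.680, 0.445 and 0.698 TPM with DMSO. It was at 0.604, 0.786 and 0.423 TPM with LPS, and at 0.871, 0.747 and 0.995 TPM with LPS + Ska. The LPS + Ska columns were above all DMSO columns and overlapped with LPS. When the filter was removed, the log2 fold change of Hspa1a was 0.23 with LPS + Ska compared with LPS (adjusted p = 0.21) and 0.22 compared with DMSO (adjusted p = 0.16). The sum of both genes was 4.40 TPM ± 0.358 with DMSO, 5.29 ± 1.02 with LPS and 7.46 ± 0.0864 with LPS + Ska (mean ± SD, n = 3 columns), and it rose with LPS + Ska compared with DMSO by 0.65 on the log2 scale (adjusted p = 0.0018). Even so, Hspa8 was at 296 to 342 times the level of this sum with LPS + Ska, against 494 to 544 times with DMSO and 466 to 648 times with LPS.

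Hspa8 (chr9:40800984-40810087) encodes the constitutive Hsp70, which serves the folding of new proteins and clathrin uncoating in unstressed cells. It was at 2215, 2294 and 2379.6 TPM with DMSO. With LPS it was at 2853, 2939 and 2767 TPM, above all DMSO columns. With LPS + Ska it was at 2379, 2524 and 2234 TPM, below all LPS columns and overlapping with DMSO. The log2 fold change was 0.31 with LPS compared with DMSO (SE 0.06, adjusted p = 0.0012) and -0.26 with LPS + Ska compared with LPS (SE 0.06, adjusted p = 0.0095), both inside the fold change limits. With LPS + Ska compared with DMSO it was 0.05, with a 95% interval from -0.08 to 0.18 (adjusted p = 0.47).

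Hspa8 also has processed copies in the genome. Of the windows of 50 bases in its longest transcript, 51.4% occur in another gene, mainly in the pseudogene Gm15459. Gm15459, singled out after its values were seen, was listed at 1600.5, 1644 and 1924 TPM with DMSO. It was at 1846, 1836 and 1857 TPM with LPS, and at 1615, 1724 and 1506 TPM with LPS + Ska. These levels are of the order of Hspa8 itself, and how reads were divided between both is not given in the sources used here. With the 9 copies that share at least 25 windows, Hspa8 summed to 4092 TPM ± 251 with DMSO, 4809 ± 69.0 with LPS and 4102 ± 250 with LPS + Ska (mean ± SD, n = 3 columns). On this sum the log2 fold change was 0.23 with LPS compared with DMSO (adjusted p = 0.0098) and -0.23 with LPS + Ska compared with LPS (adjusted p = 0.024), again inside the limits.

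The helpers of cytosolic Hsp70 went different ways with LPS. Dnajb1 (chr8:83608193-83612653), a J-domain protein that delivers clients to Hsp70, was at 23.8, 26.8 and 28.4 TPM with DMSO. All its LPS columns were at 22.4 TPM, and its LPS + Ska columns were at 19.6, 19.4 and 19.9 TPM. No columns of different groups overlapped, in the order DMSO, LPS, LPS + Ska. The log2 fold changes were -0.22 with LPS compared with DMSO (SE 0.08, adjusted p = 0.028), -0.18 with LPS + Ska compared with LPS (SE 0.08, adjusted p = 0.11) and -0.40 with LPS + Ska compared with DMSO (SE 0.08, adjusted p = 0.0012), all inside the limits.

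Hsph1 (chr5:149614287-149636376), an Hsp110 that acts as an exchange factor and holds unfolded clients, was at 124, 133 and 141 TPM with DMSO. The LPS columns were at 214, 206 and 222 TPM, and those of LPS + Ska at 186, 198 and 174 TPM. The LPS columns were above all others, and the LPS + Ska columns lay between LPS and DMSO without overlap. Hsph1 rose with LPS compared with DMSO by 0.69 on the log2 scale (SE 0.07, adjusted p = 2.4e-05). With LPS + Ska compared with LPS the log2 fold change was -0.20 (SE 0.07, adjusted p = 0.049), and with LPS + Ska compared with DMSO it was 0.49 (SE 0.07, adjusted p = 1.7e-04), both inside the limits. After median-ratio scaling of the columns the latter was 0.67, past the limit.

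Bag3 (chr7:128523616-128546981), an exchange factor that links Hsp70 to selective autophagy, was at 49.6, 47.1 and 58.2 TPM with DMSO. With LPS it was at 32.9, 32.1 and 33.7 TPM, and with LPS + Ska at 33.3, 32.9 and 33.8 TPM. Both treated groups were below all DMSO columns and overlapped with each other. Bag3 fell with LPS compared with DMSO by 0.63 on the log2 scale (SE 0.08, adjusted p = 1.2e-04) and with LPS + Ska compared with DMSO by 0.61 (SE 0.08, adjusted p = 1.3e-04). The difference between LPS + Ska and LPS was 0.02, with a 95% interval from -0.16 to 0.20. Without DMSO replicate 7, the highest DMSO column, the values against DMSO were -0.54 and -0.52, and after median-ratio scaling they were -0.55 and -0.43, in each case inside the limit. Leaving ribosomal protein genes and those of the mitochondrial genome out of the TPM total also took LPS + Ska compared with DMSO inside the limit, at -0.56.

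Hsp90aa1 (chr12:110690605-110702728) encodes the stress-inducible form of cytosolic Hsp90. It was at 532, 544 and 580 TPM with DMSO. LPS columns were at 905, 906 and 904 TPM and LPS + Ska columns at 1019, 1099 and 939 TPM. The 3 groups did not overlap, with DMSO lowest and LPS + Ska highest. Hsp90aa1 rose with LPS compared with DMSO by 0.71 on the log2 scale (SE 0.06, adjusted p = 1.3e-05) and with LPS + Ska compared with DMSO by 0.88 (SE 0.06, adjusted p = 2.9e-06). With LPS + Ska compared with LPS it differed by 0.17 (SE 0.06, adjusted p = 0.072). Of the windows of 50 bases in its longest transcript, 58.5% occur in other genes, and 3 processed copies were listed at 22.9 to 38.1 TPM together.

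Its constitutive partner Hsp90ab1, taken from the list of other Hsp90 genes, had another profile. Hsp90ab1 was at 1663, 1727 and 1826 TPM with DMSO. The LPS columns held 2177, 2176 and 2178 TPM, and those of LPS + Ska 1641, 1655 and 1626 TPM. The log2 fold change was 0.33 with LPS compared with DMSO (SE 0.05, adjusted p = 2.8e-04) and -0.41 with LPS + Ska compared with LPS (SE 0.05, adjusted p = 4.7e-04), both inside the limits. The ratio of Hsp90aa1 to Hsp90ab1 was 0.317 ± 0.00227 with DMSO, 0.416 ± 0.000636 with LPS and 0.621 ± 0.0429 with LPS + Ska (mean ± SD, n = 3 columns). The columns of this ratio did not overlap between any of the groups. In each comparison the exact two-sided permutation test gave p = 0.1, the smallest value that 3 columns against 3 allow, and p = 0.1 after adjustment over 6 comparisons of ratios.

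Of the mitochondrial chaperones, Hspe1 was called higher with both treatments compared with DMSO, and Hspa9 and Hspd1 were not called. Hspa9, the matrix Hsp70 also called mortalin, was at 379, 395 and 442 TPM with DMSO. With LPS it was at 565, 562 and 567 TPM, and with LPS + Ska at 494, 501 and 486 TPM. The 3 groups did not overlap, with LPS highest and DMSO lowest. The log2 fold change of Hspa9 was 0.48 with LPS compared with DMSO (SE 0.06, adjusted p = 9.6e-05), -0.19 with LPS + Ska compared with LPS (SE 0.06, adjusted p = 0.035) and 0.29 with LPS + Ska compared with DMSO (SE 0.06, adjusted p = 0.0019), all inside the limits.

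Hspd1 (chr1:55077835-55088243), the subunit of the folding chamber, was at 633, 651 and 737 TPM with DMSO. With LPS it was at 776, 753 and 800 TPM, above all DMSO columns, and with LPS + Ska at 721, 712 and 730 TPM. The LPS + Ska columns were below all LPS columns and overlapped with DMSO. The log2 fold changes were 0.21 (SE 0.06, adjusted p = 0.015), -0.11 (SE 0.06, adjusted p = 0.23) and 0.10 (SE 0.06, adjusted p = 0.17) for LPS compared with DMSO, LPS + Ska compared with LPS and LPS + Ska compared with DMSO. Of the windows of 50 bases in its longest transcript, 44.8% occur in other genes, and 4 processed copies were listed at 16.1 to 25.8 TPM together.

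Hspe1 (chr1:55088132-55091307), the subunit of the lid, was at 264, 264 and 277 TPM with DMSO. It was at 466, 469 and 463 TPM with LPS and at 489, 465 and 513 TPM with LPS + Ska. Both treated groups were above all DMSO columns and overlapped with each other. Hspe1 rose with LPS compared with DMSO by 0.80 on the log2 scale (SE 0.05, adjusted p = 1.6e-06) and with LPS + Ska compared with DMSO by 0.86 (SE 0.05, adjusted p = 9.0e-07). The difference between LPS + Ska and LPS was 0.07, with a 95% interval from -0.04 to 0.18 (adjusted p = 0.33).

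Of the windows of 50 bases in the longest transcript of Hspe1, 8.20% occur in other genes. These 75 windows all occur in AC117239.2, which the annotation marks as a retrogene. Other transcripts of Hspe1 were not compared. AC117239.2, singled out after its values were seen, was at 143, 138 and 146 TPM with DMSO. It reached 195, 199 and 191 TPM with LPS, and was at 146, 134 and 158 TPM with LPS + Ska. Its log2 fold change with LPS + Ska compared with LPS was -0.42 (SE 0.06, adjusted p = 0.0016), inside the limit. Its ratio to Hspe1 was 0.530 ± 0.00990 with DMSO, 0.419 ± 0.00607 with LPS and 0.298 ± 0.00926 with LPS + Ska (mean ± SD, n = 3 columns). When both genes were summed, the log2 fold change of Hspe1 with LPS + Ska compared with LPS was -0.06 (adjusted p = 0.41), of the opposite sign, and the values against DMSO were 0.69 for LPS (adjusted p = 5.1e-06) and 0.63 for LPS + Ska (adjusted p = 6.9e-06).

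Hspd1 and Hspe1 stand head to head on chromosome 1 and overlap by 112 bases. Whether reads were counted by strand is not given in the sources used here, so reads in the overlap cannot be assigned. The ratio of Hspe1 to Hspd1 was 0.417, 0.406 and 0.375 in the DMSO columns. It was 0.601, 0.623 and 0.579 with LPS, and 0.678, 0.653 and 0.702 with LPS + Ska. The groups did not overlap, and the log2 difference was 0.59 with LPS compared with DMSO, 0.17 with LPS + Ska compared with LPS and 0.76 with LPS + Ska compared with DMSO. The exact two-sided permutation test gave p = 0.1 in each, the smallest value that 3 columns against 3 allow. Here too the tied columns were taken as independent values, so this p is too small.

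**Figure D3:**
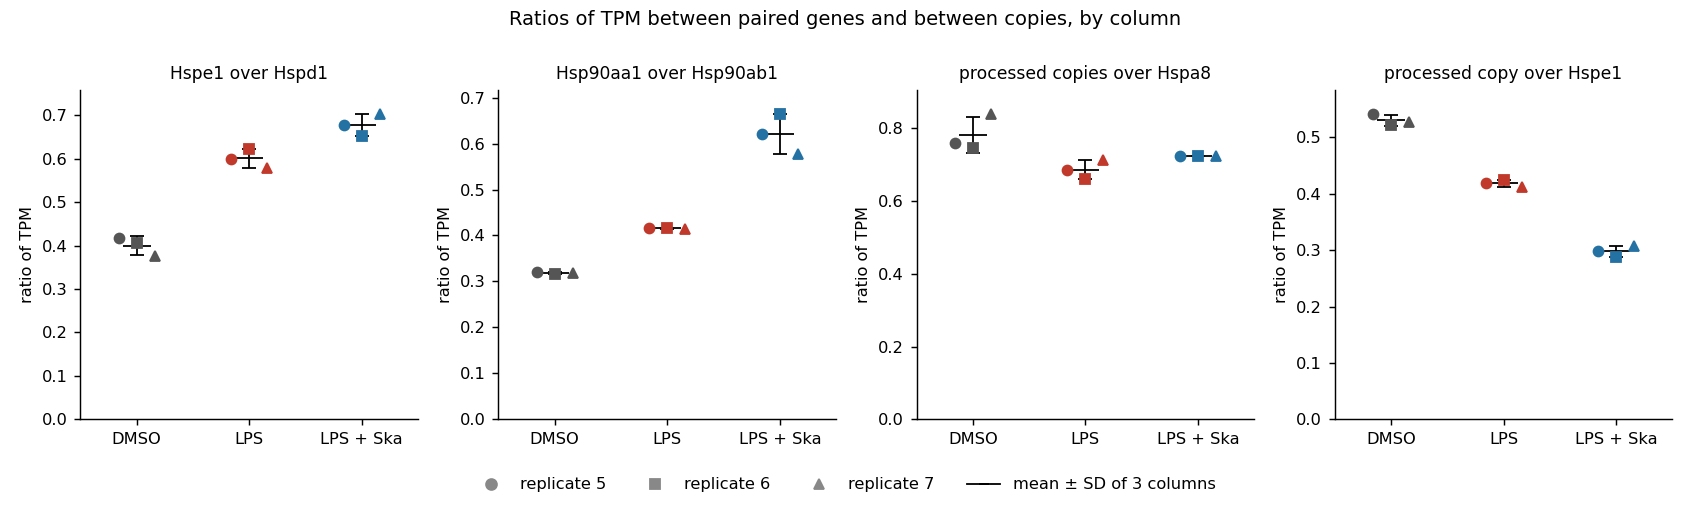
Ratios of TPM (vertical axes, linear and starting at 0) of Hspe1 to Hspd1, Hsp90aa1 to Hsp90ab1, the summed processed copies of Hspa8 to Hspa8, and the processed copy of Hspe1 to Hspe1, in the 9 columns by group. Points are columns, horizontal bars are means and error bars are the SD of 3 columns. The 2 ratios on the left are lowest with DMSO and highest with LPS + Ska, and the ratio of the copy to Hspe1 runs the other way.

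The promoters were also searched for heat shock element letters. A unit is NGAAN, and both strands were searched by spelling each motif in both orientations for a pair (GAANNTTC or TTCNNGAA) and a run of 3 units (GAANNTTCNNGAA or TTCNNGAANNTTC), which contains pairs. A pair occurs in 15.1% of 32851 promoters of this length and a run of 3 in 0.603% (198 promoters). Promoters were found for 7 of the 10 genes, and those of Hspa8, Hsp90aa1 and Hspa9 were not analysed here. A run of 3 was found for Hsph1, Hspd1 and Hspe1, a pair alone for Hspa1a, Hspa1b and Bag3, and neither for Dnajb1. A match describes letters in the window and is no evidence of binding. Only exact letters in this window were matched, so a missing match does not show that an element is missing.

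The run in Hspd1 and Hspe1 is 1 and the same stretch, and it is shown because the promoters of both genes hold it while Hspe1 was called higher with LPS and Hspd1 was not. Its 18 bases, in capitals, lie at chr1:55088059-55088076 in GRCm38.p6, from 89 to 72 bases before the start site of Hspe1 and from 144 to 127 bases before 1 of the 2 start sites of Hspd1. The annotation also has an exon of Hspd1 there, from a transcript that starts further upstream. The stretch in Hsph1 from 36 to 48 bases after 1 of its 2 start sites and a pair from 33 to 26 bases before that site are shown because Hsph1 rose with LPS. Counted from the other start site, they lie 15 to 27 bases after and 54 to 47 bases before it. They lie at chr5:149636288-149636300 and chr5:149636362-149636369, within an exon of Hsph1 in the annotation. Each line reads along the strand of the named gene.
Hspe1: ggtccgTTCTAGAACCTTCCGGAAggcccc
Hspd1: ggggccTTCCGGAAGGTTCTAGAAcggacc
Hsph1, after the start site: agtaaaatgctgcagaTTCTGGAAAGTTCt
Hsph1, before the start site: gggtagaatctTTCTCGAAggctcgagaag

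**Figure D4:**
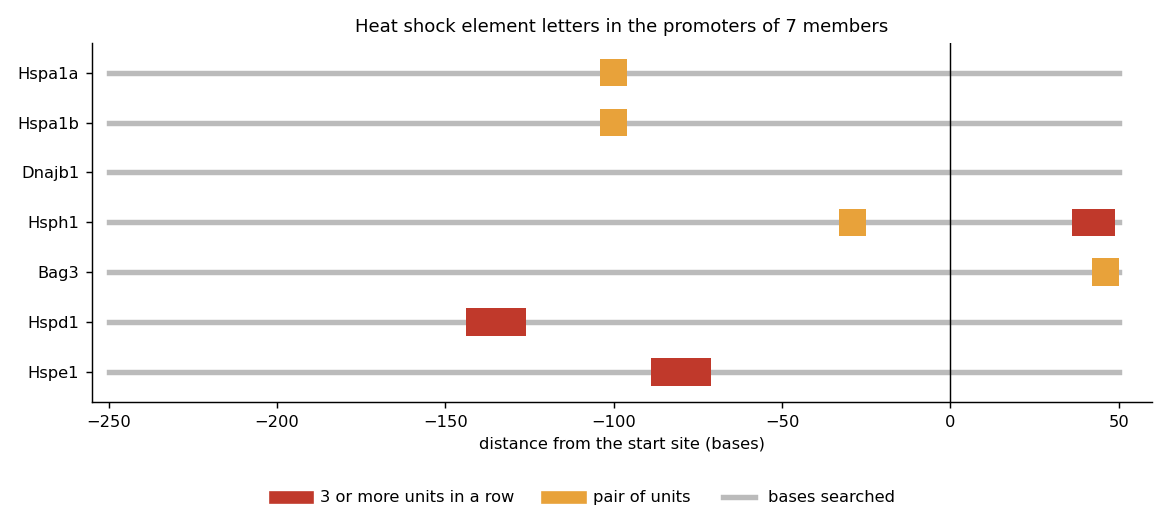
Positions of heat shock element letters in the RefSeq promoters of 7 genes, on a linear axis of distance from the start site in bases, with upstream to the left. Gray lines are the bases searched, dark bars are runs of 3 or more units and light bars are pairs. The run lies 89 to 72 bases before the start site of Hspe1 and 144 to 127 bases before 1 of the 2 start sites of Hspd1. No exact match was found for Dnajb1. For Hsph1 the start site with the stretch 36 to 48 bases after it is drawn.

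Beyond the 10 genes, 74 genes of the same chaperone pathways were counted in 8 lists, of which 63 were tested. In LPS compared with DMSO, 11 were called higher and 6 lower, where 12.7% and 20.0% of all tested genes were. In LPS + Ska compared with LPS, 1 was called higher and 2 lower, beside 3.35% and 6.14% of all tested genes. In LPS + Ska compared with DMSO 8 were called higher and 13 lower, beside 11.4% and 25.3%. The median log2 fold changes were -0.02, -0.09 and -0.08 in that order, against -0.07, -0.10 and -0.18 over all tested genes. The split depended on the scaling of the columns. After median-ratio scaling the counts were 13 higher and 4 lower, 2 higher and 1 lower, and 17 higher and 7 lower. The split over all 12819 tested genes moved as well. With that scaling it was 1970 higher and 2150 lower, 588 and 543, and 2153 and 2295. Promoters were found for 58 of the 74 genes. Of these genes, 17 hold a pair of heat shock element units and 2, Chordc1 and Dnajb6, a run of 3 at any of their start sites. The shares given above count promoters and not genes, so these counts cannot be set against them directly.

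Hsf1, the main activator of heat shock genes, was at 71.3, 73.0 and 66.8 TPM with DMSO. LPS columns were at 57.9, 56.2 and 59.7 TPM, and LPS + Ska columns at 38.3, 41.7 and 35.0 TPM. The groups did not overlap, with LPS + Ska lowest. Hsf1 fell with LPS + Ska compared with LPS by 0.59 on the log2 scale (SE 0.07, adjusted p = 7.1e-04) and compared with DMSO by 0.86 (adjusted p = 8.6e-06). The fall compared with LPS lies close to the limit. It was -0.57 without LPS replicate 7, -0.52 without LPS + Ska replicate 7, -0.57 with ribosomal protein genes and those of the mitochondrial genome left out of the TPM total, and -0.49 after median-ratio scaling, all inside the limit. Hsf2, a second factor of this family, rose with LPS compared with DMSO by 0.62 (adjusted p = 0.0016), which was 0.52, inside the limit, without DMSO replicate 5. Of the 5 genes in this list, Hsf1, Hsf2 and Hsbp1, which encodes a protein that binds heat shock factors, were tested, and Hsf4 and Hsf5 were not.

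Among other Hsp70 and Hsp110 genes, 4 of 6 tested were called higher with LPS compared with DMSO and 0 lower, beside 12.7% and 20.0% of all tested genes. The 4 include Hspa12a, which passed the filter on low values only through the groups where it is high. Hspa4l, an Hsp110, rose from 9.89 TPM ± 0.698 with DMSO to 25.3 ± 0.350 with LPS (log2 fold change 1.28, adjusted p = 3.0e-06), and was at 23.9 ± 2.35 with LPS + Ska. Hspa4, the most abundant Hsp110 of the list, rose from 235 TPM ± 14.1 to 355 ± 8.88 (0.59, adjusted p = 7.2e-05). The value for Hspa4 was 0.57 without DMSO replicate 5 or DMSO replicate 6 and 0.58 without LPS replicate 6, inside the limit. Hspa13, an Hsp70 of the endoplasmic reticulum, rose by 0.78 (adjusted p = 1.4e-04), to 45.8 TPM. Hspa12a, a distant relative of Hsp70, was at 0.152, 1.29 and 0.165 TPM with DMSO, at 1.74, 1.19 and 2.29 TPM with LPS and at 2.24, 2.31 and 2.16 TPM with LPS + Ska. DMSO replicate 6 lay above LPS replicate 6, so these groups overlapped. The log2 fold change of Hspa12a with LPS compared with DMSO was 0.89 (adjusted p = 0.018), and between 0.73 and 1.98 over the alternatives. The adjusted p of Hspa12a was 0.061 without DMSO replicate 5, 0.063 without DMSO replicate 7, 0.052 without LPS replicate 5 and 0.066 without LPS replicate 7. None of the 6 was called with LPS + Ska compared with LPS, where 3 had an adjusted p below 0.05. In that comparison 1139 higher and 2524 lower of all 12819 tested genes had such an adjusted p.

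Of the 15 tested genes for other Hsp90 proteins and co-chaperones, 2 were called higher and 4 lower with LPS compared with DMSO, beside 12.7% and 20.0% of all tested genes. Cacybp, which binds Hsp90 and a ubiquitin ligase, rose by 0.83 on the log2 scale (adjusted p = 6.0e-06). Chordc1, whose promoter holds a run of 3 units, rose by 0.78 (adjusted p = 2.1e-05). Dnajb6, the other gene of the lists with such a run, was at 0.20 with LPS compared with DMSO (adjusted p = 0.0099, limma), inside the limit. Stub1, the ubiquitin ligase CHIP that marks chaperone clients for degradation, fell from 143 TPM ± 3.76 to 70.6 ± 0.256 (log2 fold change -1.01, adjusted p = 0.0024). Ahsa1, the activator of the Hsp90 ATPase, fell by 0.69 (adjusted p = 4.9e-05). With LPS + Ska compared with LPS none of the 15 was called, and 3 had an adjusted p below 0.05. Of all 12819 tested genes, 1139 higher and 2524 lower had such an adjusted p.

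Dnajb4, a J-domain protein related to Dnajb1, was the 1 gene of the 8 lists called higher with LPS + Ska compared with LPS on the scale of the deposited TPM. After median-ratio scaling Dnajb2, of the same list and named after its values were seen, was also called higher, at 0.64 (adjusted p = 0.0028), against 0.55 (adjusted p = 0.0083) as deposited, inside the limit. Dnajb4 was at 13.7, 15.6 and 15.2 TPM with DMSO and at 13.8, 12.0 and 15.5 TPM with LPS. With LPS + Ska it was at 23.6, 25.1 and 22.2 TPM, above all other columns. The log2 fold change of Dnajb4 was 0.74 (SE 0.10, adjusted p = 0.0011) compared with LPS, and between 0.65 and 0.84 over the alternatives. Dnajb9, which resides in the endoplasmic reticulum although it was listed here with cytosolic genes, rose with LPS compared with DMSO by 0.63 (adjusted p = 0.0089). This was 0.44 without DMSO replicate 5 and 0.56 without LPS replicate 7, inside the limit. Dnajc2, which works at the ribosome, rose by 0.62 (adjusted p = 0.0013), or 0.49 without DMSO replicate 7, inside the limit.

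In the remaining lists few genes were called. Tcp1 and Cct4, 2 of the 8 subunits of the cytosolic chaperonin TRiC, rose with LPS compared with DMSO, by 0.62 (adjusted p = 1.2e-05) and 0.63 (adjusted p = 1.9e-05). Hscb, a mitochondrial J-domain protein for iron-sulfur clusters, fell from 31.4 TPM ± 1.74 with DMSO to 14.3 ± 0.190 with LPS (log2 fold change -1.08, adjusted p = 2.6e-06). Of the 13 mitochondrial quality control genes, 0 were called higher and 1, Hscb, lower in this comparison, beside 12.7% and 20.0% of all tested genes. With LPS + Ska compared with DMSO 0 were called higher and 3 lower, beside 11.4% and 25.3%. Those 3 were Hscb, at -1.02, and Trap1 and Htra2, at -0.64 and -0.65, the latter pair named after their values were seen and inside the limit after median-ratio scaling (both -0.46). Yme1l1, a mitochondrial protease also named after its values were seen, was at 0.58 with LPS compared with DMSO, inside the limit, and was called higher after median-ratio scaling (0.66) and with ribosomal protein genes and those of the mitochondrial genome left out of the TPM total (0.62). After median-ratio scaling it was also called higher with LPS + Ska compared with DMSO (0.66). Hspbp1, an exchange factor of Hsp70, fell with LPS compared with DMSO by 0.63 (adjusted p = 0.0014). In that comparison it was inside the limit after median-ratio scaling (-0.55), without DMSO replicate 6 (-0.55) and without LPS replicate 6 (-0.52). Small heat shock proteins were scarce, as 2 of 8 reached the filter. Of these, Hspb7 was at 4.68, 4.48 and 4.88 TPM with LPS and fell with LPS + Ska, to 2.17, 1.07 and 3.27 TPM (log2 fold change -0.90, adjusted p = 0.021). The adjusted p of Hspb7 lay between 0.053 and 0.069 without any 1 of the 3 LPS columns or LPS + Ska replicate 5, and was 0.055 with no filter.

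**Figure D5:**
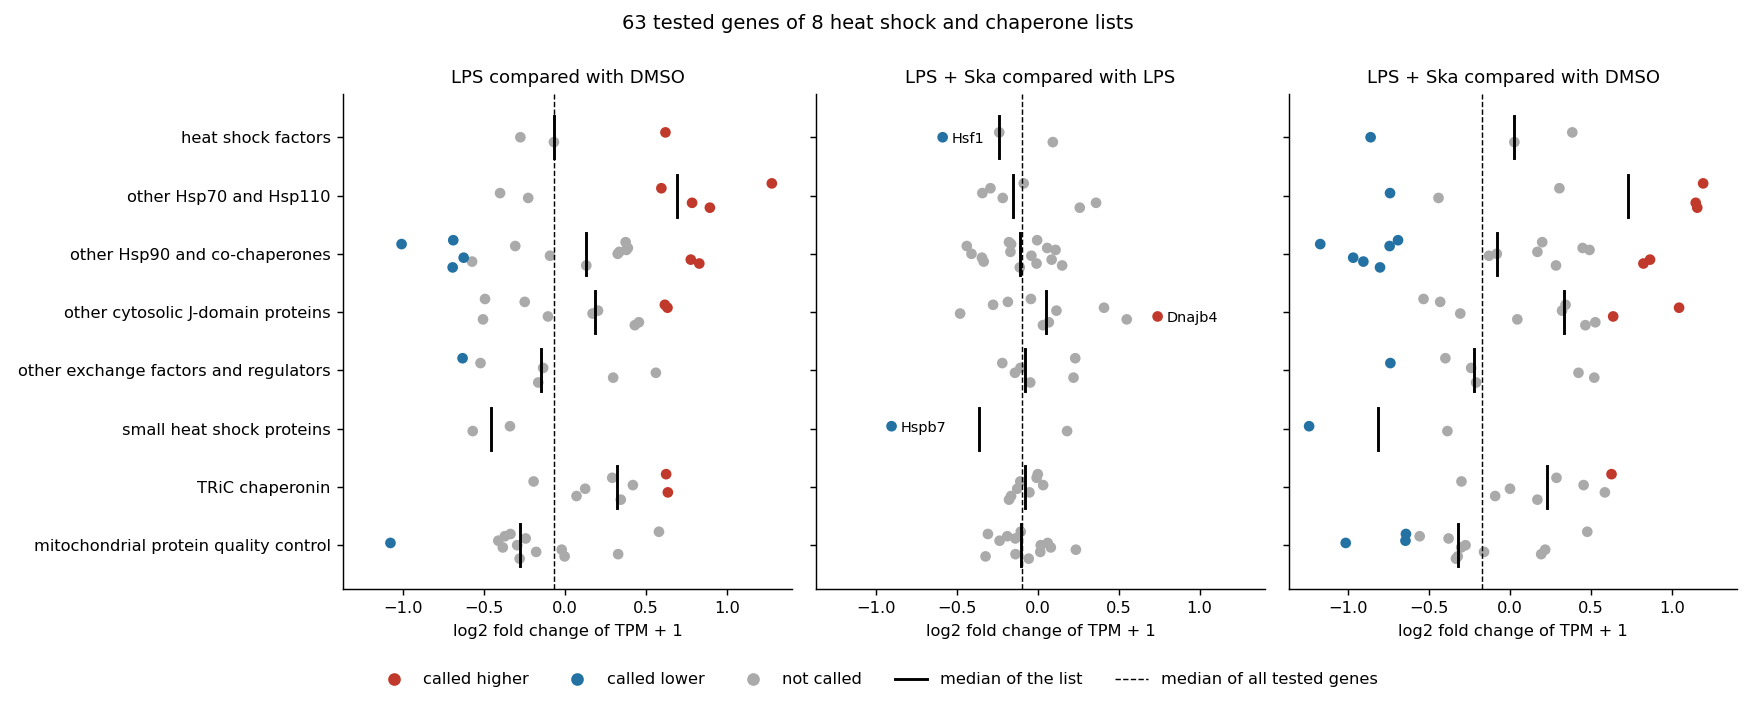
log2 fold change of TPM + 1 (horizontal axes) of the 63 tested genes in 8 lists of heat shock factors and other chaperones, in the 3 comparisons. Points are genes, solid bars are medians of a list, and the dashed line is the median of all tested genes. With LPS + Ska compared with LPS, Hsf1, Hspb7 and Dnajb4 are the called genes.

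As a description of pattern, genes were ranked by Pearson correlation of log2(TPM + 1) with 3 of the heat shock genes over the 9 columns, which share groups and tied values. Most like Hspa1b among 12818 genes were Gm38309 (r = 0.996), Cd200r4 (0.989), Prmt2 (0.983), Snrpd1 (0.981) and Gm5596 (0.970). Most like Hspa8 were Dlg1 (0.989), Gpd2 (0.988), Ralgapa1 (0.986), Zfp26 (0.986) and Zfp318 (0.983). Most like Hspd1 were Gm9923 (0.979), Mkx (0.978), 4930430E12Rik (0.972), Tnnt1 (0.972) and Gas5 (0.971). Cd200r4, Gm5596 and Tnnt1 had means of 0.426, 0.656 and 0.418 TPM with DMSO. These 3 passed the filter on low values only through groups where they are high. Within the 9 tested heat shock genes the highest correlations were those of Hsph1 with Hspa9 (0.977) and of Hsp90aa1 with Hspe1 (0.969). The lowest was that of Bag3 with Hspe1 (-0.946), and that of Hspd1 with Hspe1 was 0.699.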

How the data were processed

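RNA of RAW264.7 macrophages was sequenced for 9 samples. The authors deposited TPM for 55401 Ensembl genes, and the submitters' processing notes name fastp 0.20.1, HISAT2 2.2.1, StringTie 2.0 and mm10, with no roles given. The annotation, the counting and the origin of the tied columns are not given in the sources used here. Labels give 24 h of treatment, whereas the study's methods state a longer time. Symbols were matched for 55141 genes. The 10 heat shock genes and the pathway lists were chosen with earlier results of these data known.

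limma 3.58.1 in R 4.3.3 (lmFit, eBayes with intensity trend) was run on log2(TPM + 1) of all 9 columns, for genes whose TPM averaged 1 or more. Fold changes are on this scale and understate those of low genes. Adjustment was by Benjamini-Hochberg over all tested genes. On simulated data for LPS + Ska compared with LPS (12819 genes, 200 changed by 1.5 on the log2 scale), 93.6% of changed genes were recovered. Simulated columns were drawn independently, unlike the tied ones, and the planted change exceeded that of every tested heat shock gene in this comparison. The simulation therefore gives no recovery rate for smaller changes or for tied columns. Named are the 10 genes and, per list, up to 4 called genes with the largest change in LPS + Ska compared with LPS, then in LPS compared with DMSO. Other settings tried were 0.1 as pseudocount, filters at 5 TPM or none, other scalings, fits of the compared groups alone and no trend. Further settings were no fold change limits, a replicate block, each column left out and a sum of Hspa1a and Hspa1b. In 1 more setting, tied columns were replaced by assumed values, replicate 5 plus and minus 0.5 times its difference from replicate 6. Sums with processed copies (pseudogenes and retrogenes sharing at least 25 windows of 50 bases) were chosen after seeing the data. Transcripts came from GENCODE and promoters from RefSeq. Plots used matplotlib 3.10.9 (Python 3.11.15).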

Additional observations from a re-analysis of the deposited data

How the results depend on the processing

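With adjusted p alone and no fold change limits, 6 of the 9 heat shock genes were higher and 2 lower with LPS compared with DMSO, 1 higher and 3 lower with LPS + Ska compared with LPS, and 5 higher and 2 lower with LPS + Ska compared with DMSO. All genes called then numbered 7734, 3663 and 8116. The count of heat shock genes called lower was 0 in LPS compared with DMSO and in LPS + Ska compared with DMSO after median-ratio scaling, and 0 in the latter with ribosomal protein genes and those of the mitochondrial genome left out of the TPM total. With each column left out in turn it ranged from 0 to 1 in both, and was 0 without DMSO replicate 7. The gene that lost its call was Bag3 each time. Summing genes with their processed copies turned the sign of Hspe1 in LPS + Ska compared with LPS, to -0.060, which was not called in either form. No other log2 fold change of a tested heat shock gene changed sign under an alternative.

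Median-ratio scaling moved the median log2 fold change of all genes from -0.18 to -0.01 in LPS + Ska compared with DMSO. The share of called genes that were higher moved from 31.0% to 48.4% there, from 35.3% to 52.0% in LPS + Ska compared with LPS, and from 38.9% to 47.8% in LPS compared with DMSO.

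Same-numbered columns deviated from their group means with a correlation of 0.38, 0.15 and 0.13 between LPS and LPS + Ska, and of -0.032 to 0.080 otherwise. As the columns of these groups are tied alike, samples were treated as unpaired. With a replicate block, 3 heat shock genes were called higher and 1 lower in LPS compared with DMSO, 0 and 0 in LPS + Ska compared with LPS, and 3 and 1 in LPS + Ska compared with DMSO, as without it. In LPS + Ska compared with LPS, the 4 genes with an adjusted p below 0.05 became 1, Hspa8, with the block and also with the assumed values for tied columns. The unknown depth sets an unknown floor for Hspa1a and Hspa1b.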
